A study of Rattus norvegicus with 151 samples.

Results

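The alpha, mu and pi glutathione transferases followed here were 8 genes out of 14218 named genes on the array. They were Gsta2, Gsta3, Gsta4, Gsta5, Gstm1, Gstm2, Gstm4 and Gstp1. The array also measured Gsta1, Gstm3, Gstm5 and Gstm7 of the alpha and mu classes. These were no members and were counted with the other glutathione transferases. Their probe sets were found by gene symbol through the array annotation. Each gene had a single probe set (a group of short probes read as 1 value), and Gsta2 and Gsta5 had the same one. The 8 genes were therefore followed as 7 features, and the signals of Gsta2 and Gsta5 cannot be told apart.

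Messenger RNA was measured in 2 organs, liver and kidney, of male rats of the Harlan Sprague-Dawley stock, 6 to 8 weeks old, dosed by stomach tube on 5 days. The chemicals were MCHM (4-methylcyclohexanemethanol, a saturated ring alcohol), crude MCHM (a technical product that consists chiefly of MCHM) and PPH (propylene glycol phenyl ether, which carries an aromatic ring), and each had a separate group given only the corn oil vehicle. MCHM and crude MCHM shared 6 dose steps, the lowest 3 at 0.1, 1 and 10 mg/kg and the upper 3 at 100, 300 and 500 mg/kg, while PPH rats received 1, 10, 100, 500 or 1000 mg/kg. The data used comprised 150 of 151 arrays (81 livers and 69 kidneys) in 40 groups. A dosed liver group had 4 arrays, with 3 in the lowest crude MCHM group, and the liver vehicles numbered 5 for MCHM, 4 for crude MCHM and 5 for PPH. Kidney groups were smaller in the crude MCHM set, where each dose up to 100 mg/kg had 2 arrays and the vehicle and the remaining doses had 3. The other dosed kidney groups had 4, or 3 in the lowest MCHM group and in the 500 mg/kg PPH group, and the MCHM and PPH kidney vehicles numbered 5 each. Nothing in the labels says whether the arrays of a group came from separate rats, so the p-values measure the spread between these samples, which may be technical. The number of arrays limited the precision.

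Glutathione transferases join the tripeptide glutathione to electrophilic compounds, which makes them water soluble and ready for export from the cell. The alpha class (Gsta genes) and the mu class (Gstm genes) make up most of this activity in rat hepatocytes, whereas the pi class gene Gstp1 is scarce in normal adult rat hepatocytes and is known as a marker of preneoplastic foci in rat liver. Several of these genes are known targets of Nrf2, a transcription factor that binds antioxidant response elements, and of the xenobiotic receptors CAR, PXR and AhR. Within the classes, Gsta2 and Gsta5 encode alpha subunits with peroxidase activity toward lipid hydroperoxides. The reference gene table lists Yc2 as another name of Gsta3, and Yc2 is the rat alpha subunit known for conjugating the epoxide of aflatoxin. Gsta4 acts on hydroxynonenal, a product of lipid peroxidation, and Gstm1 and Gstm2 encode the main mu subunits of rat liver.

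RefSeq's GRCr8 assembly places Gsta2, Gsta4 and Gsta5 on chromosome 8, Gsta3 on chromosome 9, Gstm1, Gstm2 and Gstm4 on chromosome 2 and Gstp1 on chromosome 1. The 250 bases before the transcription start of 4 of the genes are printed here 5′ to 3′, because Gsta3 and Gstp1 had the largest changes in PPH livers, Gstm1 had the largest in PPH kidneys, and Gsta2 stands for the shared probe set. Capitals mark matches to TGACNNNGC, the core of the antioxidant response element, searched on both strands.
Gsta3: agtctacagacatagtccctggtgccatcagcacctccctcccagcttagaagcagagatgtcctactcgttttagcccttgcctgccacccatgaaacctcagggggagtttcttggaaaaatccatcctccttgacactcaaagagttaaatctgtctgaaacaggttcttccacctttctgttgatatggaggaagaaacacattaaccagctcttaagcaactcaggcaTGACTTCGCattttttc
Gstp1: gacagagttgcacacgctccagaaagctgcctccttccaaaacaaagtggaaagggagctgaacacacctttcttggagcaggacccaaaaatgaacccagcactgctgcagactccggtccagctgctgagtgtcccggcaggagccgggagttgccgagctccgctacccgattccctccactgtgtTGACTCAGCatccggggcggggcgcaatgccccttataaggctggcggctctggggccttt
Gstm1: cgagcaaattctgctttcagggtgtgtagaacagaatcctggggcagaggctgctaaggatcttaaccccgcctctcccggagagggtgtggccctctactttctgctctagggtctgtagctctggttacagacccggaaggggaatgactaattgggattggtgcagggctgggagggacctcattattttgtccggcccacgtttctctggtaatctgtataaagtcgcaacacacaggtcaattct
Gsta2: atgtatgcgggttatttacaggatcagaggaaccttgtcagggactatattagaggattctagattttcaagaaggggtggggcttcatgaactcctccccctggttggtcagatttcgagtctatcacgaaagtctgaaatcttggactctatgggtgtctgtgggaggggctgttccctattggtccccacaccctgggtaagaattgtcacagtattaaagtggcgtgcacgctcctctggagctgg
The windows are chr9:31154739-31154988 on the plus strand for Gsta3, chr1:210769706-210769955 on the minus strand for Gstp1, chr2:198343384-198343633 on the minus strand for Gstm1 and chr8:88077093-88077342 on the minus strand for Gsta2. A match stood in 2 of the 8 genes. In Gsta3 its first base lay 17 bases before the start, and in Gstp1 61 bases before it. A second annotated start of Gsta3 had no match in its window. Over 33469 windows of the same length in the RefSeq table, 10.1% held the motif. The AhR core GCGTG was found in windows of 5 of the 8 genes, which had 9 windows, and 25.9% of all windows held it. For Gsta3 it stood only in the window of the second start, not in the one printed. Such matches describe these letters only and show no binding.

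The tissues carried their own markers. Alb, the albumin gene of hepatocytes, read 14.62 to 14.85 log2 units in livers, and Slc34a1, a phosphate transporter gene of the proximal tubule, read 12.80 to 13.81 in kidneys and 4.10 to 5.68 in livers. Alb read 3.59 to 11.06 in kidneys, and 2 of them stood far above the rest, MCHM vehicle replicate 4 (10.19) and 1 array at 1 mg/kg crude MCHM (11.06). Gstm1, the member with the widest gap between tissues, read 7.39 log2 units in MCHM vehicle replicate 4, where its group ranged from 7.39 to 8.43. In the crude MCHM array it read 8.27, against 7.17 in the only other array of its group. Any part of liver RNA in these values was not tested. In bulk tissue, fewer cells of a type and less RNA per cell cannot be told apart.

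In vehicle rats the same probe sets read very differently in the 2 tissues. Gstm1 was higher in liver than in kidney by 4.52, 4.44 and 5.00 log2 units in the MCHM, crude MCHM and PPH sets, and Gstm2 by 3.86, 3.99 and 4.38. Gstm4 was also higher in liver, by 1.25, 0.80 and 0.83. Gstp1 ran the other way and was lower in liver, with liver minus kidney differences of -3.84, -3.51 and -2.87. Gsta4 was modestly lower in liver, at -0.56, -0.86 and -0.83. Gsta3 was higher in liver in the MCHM set (0.81, limma adjusted p = 0.0151) and the crude MCHM set (0.97, adjusted p = 0.00964), while its difference of 0.39 in the PPH set had an adjusted p of 0.16. The shared Gsta2/Gsta5 probe set differed in the PPH set only among the 3 tests (-0.27, adjusted p = 0.00583). A member was called where its adjusted p (Benjamini-Hochberg, over all genes tested) was under 0.05. That held for 6 of 7 members in each set, against 76.9%, 75% and 77.7% of all genes tested.

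The 3 vehicle groups of a tissue were not alike, and every dose effect was taken within its own set. In liver, PPH vehicles had more Gstp1 than MCHM vehicles, by 0.29 ± 0.08 log2 units (SE, limma adjusted p = 0.00491), the 1 member called where 17.4% of all genes were. In kidney, PPH vehicles differed from MCHM vehicles in 3 members (31.5% of all genes were called), with Gstp1 at -0.68, Gstm2 at -0.47 and Gstm4 at 0.26. Crude MCHM kidney vehicles had 0.31 log2 units more Gstm4 than MCHM kidney vehicles (adjusted p = 0.0177), the 1 member called beside 22.3% of all genes. No member was called in the other 3 vehicle comparisons, where 2.55%, 11.4% and 1.76% of genes were.

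The question of each dose comparison was which members changed, in which tissue, and from which dose. At the highest PPH dose Gsta3, Gstp1 and Gsta2/Gsta5 rose in liver, and Gstm1, Gsta3, Gstm2 and Gsta2/Gsta5 rose in kidney, so that Gsta3 and Gsta2/Gsta5 were called in both tissues. With MCHM and crude MCHM, Gsta2/Gsta5 rose in liver and Gsta3 rose in the liver dose trends, and no member passed the test for either chemical in kidney. At doses of 100 mg/kg or less no member was called by limma in any of 22 comparisons, and 10 of 154 single tests had an unadjusted p under 0.05. Over all genes, that p was under 0.05 for between 324 of 11265 (kidney, 1 mg/kg PPH) and 1202 of 11343 (liver, 1 mg/kg PPH) per comparison. At most 0.00882% of all genes were called in those comparisons.

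Gsta3 had the largest response of the group. In liver it read 9.23, 9.54, 9.68 and 9.24 log2 units after 1000 mg/kg PPH, against 5.50, 7.35, 6.37, 7.12 and 7.53 in PPH vehicles. Every dosed liver lay above every vehicle, and the vehicle at 5.50 stood below the others. The rise was 2.65 ± 0.32 log2 units (SE), 6.27-fold, with a limma adjusted p of 8.74e-05, and without the lowest vehicle it was 2.33. The 4 livers at 500 mg/kg PPH read 8.40, 7.92, 8.66 and 8.45. These too were all above the vehicles, but the difference of 1.58 ± 0.32 had an adjusted p of 0.0521. With all chemicals in 1 fit that p was 0.0094. The 3 lower doses had means of 7.87 ± 0.55, 7.36 ± 0.36 and 7.46 ± 0.44 (SD, n = 4 each) at 1, 10 and 100 mg/kg. Gsta3 moved by 0.42 log2 units per dose step across the PPH doses (adjusted p = 0.000199).

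After 500 mg/kg crude MCHM, liver Gsta3 read 8.39, 8.86, 8.52 and 8.87, against 8.05, 7.33, 7.54 and 6.96 in its vehicles. After 500 mg/kg MCHM it read 8.68, 8.23, 8.48 and 8.47, against 7.59, 8.01, 8.00, 7.21 and 6.67 in its vehicles. In both sets all dosed livers were above all vehicles, yet neither dose passed the test: the differences were 1.19 ± 0.33 (adjusted p = 0.0992) for crude MCHM and 0.97 ± 0.36 (adjusted p = 0.209) for MCHM. With array weights the crude MCHM difference was called (1.20, adjusted p = 0.045). Over all doses the trends passed, at 0.22 log2 units per dose step for crude MCHM (adjusted p = 0.0133) and 0.19 for MCHM (adjusted p = 0.0367). The MCHM trend was lost in 10 of 29 fits that left out 1 array, with adjusted p up to 0.0778. The rises were not even over the doses. With crude MCHM the group means were 7.21 to 7.49 from vehicle to 100 mg/kg, then 8.49 at 300 and 8.66 at 500 mg/kg. With MCHM the mean at 0.1 mg/kg, 6.99, lay below that of the vehicles. The MCHM means were 7.45 to 7.63 from 1 to 100 mg/kg, then 8.10 at 300 and 8.47 at 500 mg/kg. At 300 mg/kg crude MCHM the 4 livers read 8.36, 9.03, 8.18 and 8.38, already near the values at 500 mg/kg, whereas the MCHM livers at 300 mg/kg ranged from 7.21 to 9.08.

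The shared Gsta2/Gsta5 probe set, rose by a small amount with each chemical in liver. It read 12.99, 12.88, 13.17 and 13.06 in 1000 mg/kg PPH livers, against 12.59, 12.50, 12.38, 12.43 and 12.91 in vehicles. The lowest dosed liver lay just under the highest vehicle, and the rise was 0.46 ± 0.11 (limma adjusted p = 0.0226). In 500 mg/kg crude MCHM livers it read 13.23, 13.19, 13.09 and 13.09, against 12.96, 12.70, 12.52 and 12.47 in vehicles, a rise of 0.49 ± 0.10 (adjusted p = 0.0135). In 500 mg/kg MCHM livers it read 12.91, 13.20, 13.15 and 13.17, against 12.68, 12.88, 12.84, 12.77 and 12.58 in vehicles, a rise of 0.35 ± 0.08 (adjusted p = 0.0334). The crude MCHM and MCHM groups did not overlap with their vehicles. These calls rested on few arrays, since the call for PPH held in 4 of 9 fits that left out 1 array, for MCHM in 3 of 9 and for crude MCHM in 6 of 8, with adjusted p up to 0.108, 0.0926 and 0.074. The trends over dose passed for MCHM (0.06 per step, adjusted p = 0.00573) and crude MCHM (0.07 per step, adjusted p = 0.00582), which passed in all 29 and all 27 such fits. The MCHM series was not even, since the 1 mg/kg livers, at 12.95 to 13.08, all lay above the vehicles (0.24, adjusted p = 0.764), with means of 12.99 ± 0.06 at 1 mg/kg, 12.90 ± 0.11 at 10 mg/kg and 12.84 ± 0.14 at 100 mg/kg (SD, n = 4 each). The PPH trend of 0.07 per step did not pass (adjusted p = 0.05, just above the threshold).

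Gsta4, the hydroxynonenal-conjugating member, was not called at any dose in either tissue. In liver it averaged 11.10 ± 0.07 after 500 mg/kg crude MCHM and 10.84 ± 0.16 in crude MCHM vehicles (SD, n = 4 each), a difference of 0.26 ± 0.07 (SE) with an adjusted p of 0.0884. With array weights that p was 0.0411, and with all chemicals in 1 fit 0.0434. Its liver difference after 1000 mg/kg PPH was 0.15 (adjusted p = 0.32), although the dosed livers, at 10.99 to 11.12, all read at or above the highest vehicle at 10.99.

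**Figure D1:**
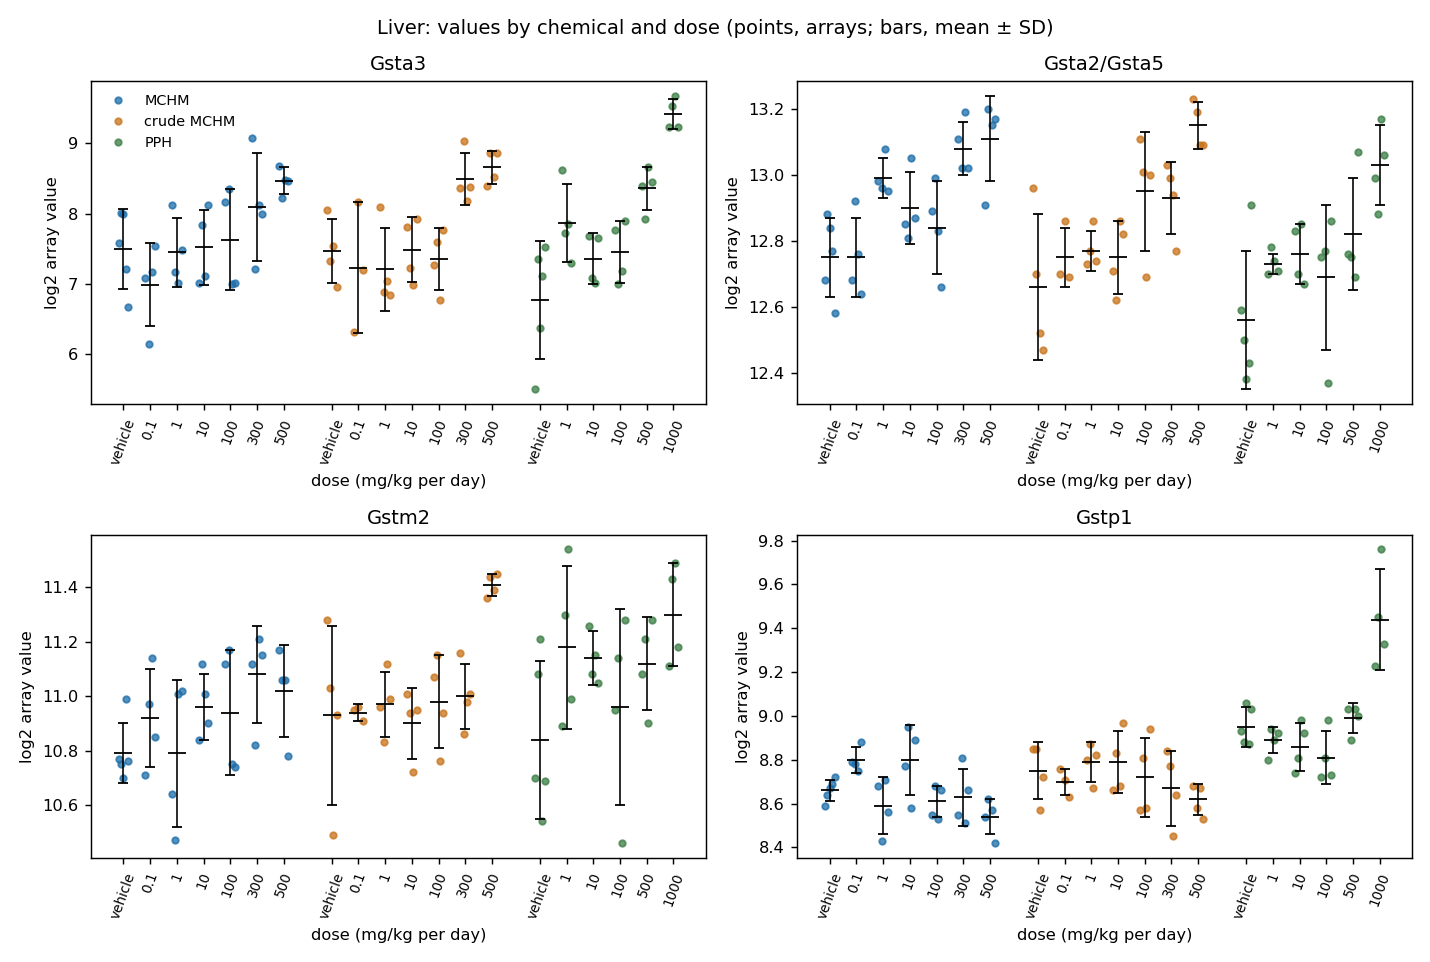
Log2 array values of Gsta3, the shared Gsta2/Gsta5 probe set, Gstm2 and Gstp1 in liver at each dose (mg/kg per day) of MCHM, crude MCHM and PPH, with 1 point per array and the mean ± SD of each group. Gsta3 stands at 9.23 to 9.68 at 1000 mg/kg PPH, above its vehicles at 5.50 to 7.53, and Gstp1 at 9.23 to 9.76, above its vehicles at 8.87 to 9.06.

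Gstp1, the pi class gene, rose in liver at 1000 mg/kg PPH. It read 9.23, 9.45, 9.76 and 9.33 there, against 8.93, 8.88, 9.06, 8.87 and 9.03 in vehicles. The groups did not overlap, and the rise was 0.49 ± 0.08 (limma adjusted p = 0.00326), called in all 9 fits that left out 1 array. The livers at 500 mg/kg PPH, at 8.89 to 9.03, overlapped the vehicles (0.04, adjusted p = 0.902). Between 1000 and 500 mg/kg the difference was 0.46 with an adjusted p of 0.0677. After 500 mg/kg MCHM and crude MCHM liver Gstp1 differed from vehicle by -0.13 ± 0.07 and -0.13 ± 0.09, with adjusted p of 0.465 and 0.593. The 0.1 mg/kg MCHM livers, at 8.75 to 8.88, lay above their vehicles at 8.59 to 8.72 without overlap, and the difference of 0.13 did not pass (adjusted p = 0.999). Gstp1 is also a gene of bile duct cells, whose 5 measured markers averaged 5.36 to 5.81 in 1000 mg/kg PPH livers and 5.37 to 5.84 in vehicles, with Krt7 and Cftr below the detection level. Their part in the Gstp1 result was not tested. Hepatocyte markers averaged 13.17 to 13.37 in the dosed livers and 13.19 to 13.44 in vehicles.

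No mu class member passed the test in liver at any dose in the main fit. Gstm2 read 11.36, 11.44, 11.39 and 11.45 after 500 mg/kg crude MCHM, against 11.28, 11.03, 10.49 and 10.93 in vehicles. All dosed livers were above all vehicles, and the difference of 0.48 ± 0.12 had a limma adjusted p of 0.0509, the member nearest to the threshold in that comparison. After 1000 mg/kg PPH the difference of Gstm2 was 0.46 ± 0.16 (adjusted p = 0.161), and after 500 mg/kg MCHM 0.22 ± 0.12 (adjusted p = 0.432). Gstm1, whose liver values lay between 12.35 and 13.13 over all 81 arrays, differed by 0.19, 0.17 and -0.07 at the highest doses of PPH, crude MCHM and MCHM, and Gstm4 by 0.13, 0.17 and 0.02. None of these passed the test.

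Counted together, 3 of 7 members rose in liver at 1000 mg/kg PPH, where 1.23% of 11343 genes did. The median change was 0.46 log2 units over the members and 0.03 over all genes. With 500 mg/kg crude MCHM 1 of 7 rose, against 0.535% of all genes, and the members' median was 0.26. With 500 mg/kg MCHM 1 of 7 rose, against 0.3% of all genes, and the median was 0.13. Groups without overlap were counted for 3 members at 1000 mg/kg PPH (4.2% of all genes were higher without overlap), 4 at 500 mg/kg crude MCHM (5.25%) and 2 at 500 mg/kg MCHM (2.69%). In the dose trends 2 of 7 members rose for each chemical, against 0.97% of genes for PPH, 1.43% for crude MCHM and 0.865% for MCHM. They were Gsta3 and Gsta2/Gsta5 for MCHM and crude MCHM, and Gsta3 and Gstp1 for PPH. Gstp1 did not rise step by step: its group means were 8.81 to 8.99 from vehicle to 500 mg/kg PPH and 9.44 at 1000 mg/kg. With 500 mg/kg PPH no member was called by limma (0.0882% of genes were) and 2 had an unadjusted p under 0.05, as had 1366 of 11343 genes. At 300 mg/kg no member was called by limma for MCHM (0.0265% of genes) or crude MCHM (1.01% of genes), with 2 at an unadjusted p under 0.05 for each. Over all genes that p was under 0.05 for 873 of 11336 with MCHM and 1605 of 11403 with crude MCHM.

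**Figure D2:**
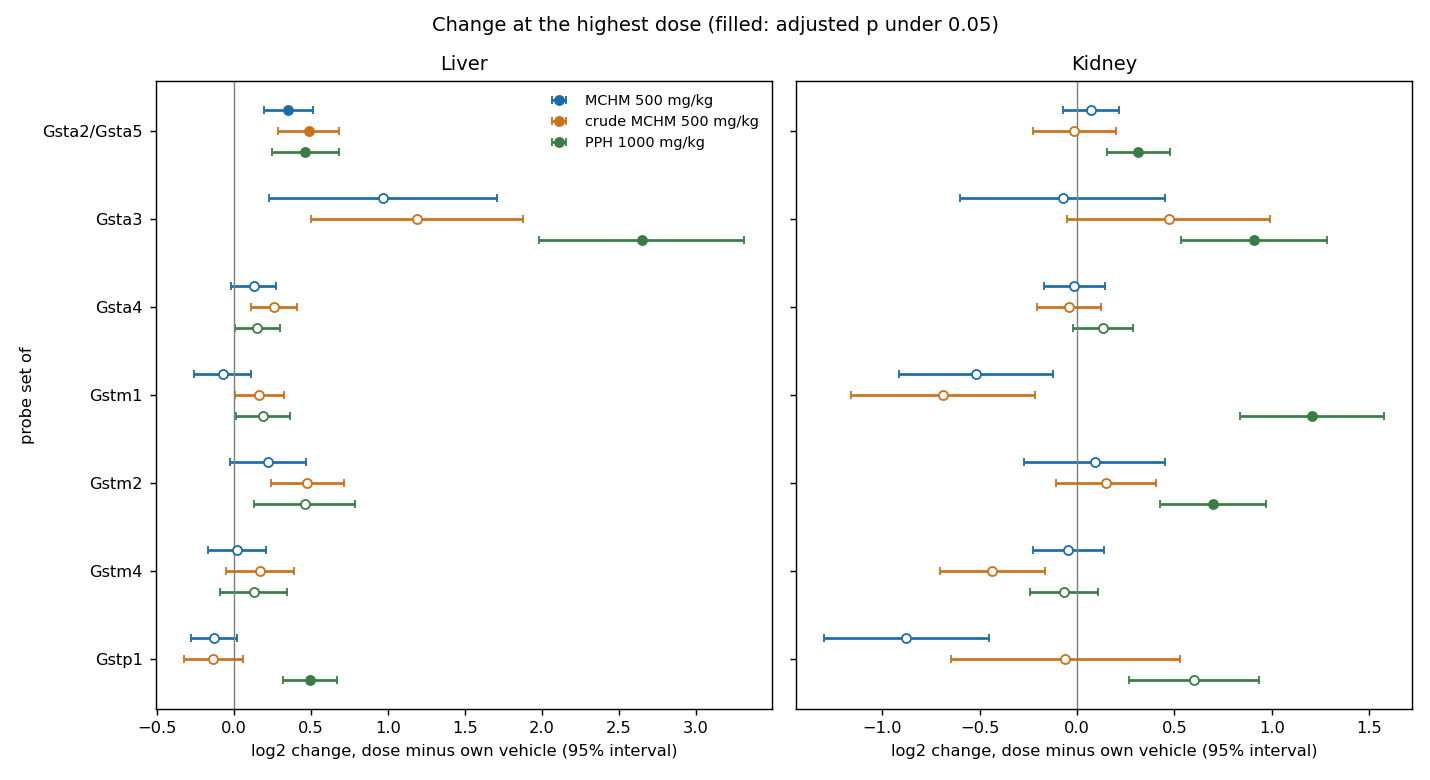
Log2 change of the 7 probe sets at the highest dose minus the own vehicle, with 95% intervals from limma, in liver (left) and kidney (right), for 500 mg/kg MCHM, 500 mg/kg crude MCHM and 1000 mg/kg PPH. Filled points passed an adjusted p under 0.05, which in liver were Gsta3 (2.65), Gstp1 (0.49) and Gsta2/Gsta5 with PPH and Gsta2/Gsta5 with both other chemicals, and in kidney Gstm1 (1.21), Gsta3 (0.91), Gstm2 (0.70) and Gsta2/Gsta5 (0.31) with PPH.

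In kidney Gstm1 led the response to PPH. It read 8.65, 9.06, 9.16 and 9.03 log2 units after 1000 mg/kg PPH, against 7.78, 7.78, 8.18, 7.53 and 7.56 in vehicles. All dosed kidneys were above all vehicles, and the rise was 1.21 ± 0.18 (SE), 2.31-fold, with a limma adjusted p of 0.000418. Kidneys at 500 mg/kg PPH read 8.37, 8.15 and 8.73, 2 of them above all vehicles, and the difference of 0.65 ± 0.19 had an adjusted p of 0.51. Across the PPH doses Gstm1 moved by 0.22 per dose step (adjusted p = 0.000284). The rise was not even, with group means of 7.77 to 7.90 from vehicle to 100 mg/kg, then 8.42 at 500 and 8.97 at 1000 mg/kg. The 6 hepatocyte markers averaged 4.93 to 5.60 in the dosed kidneys and 4.99 to 5.25 in vehicles, with Alb at 3.59 to 5.01 in the dosed and 4.15 to 4.93 in the vehicle kidneys. Of the 3 that could be tested Cyp2e1, a cytochrome also made in kidney, rose (0.76, adjusted p = 0.0296), and its part in the result was not tested.

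Gsta3, Gstm2 and Gsta2/Gsta5 rose beside it. Kidney Gsta3 read 7.17, 7.28, 7.31 and 7.41 after 1000 mg/kg PPH, against 6.65, 6.45, 5.96, 6.20 and 6.65 in vehicles, a rise of 0.91 ± 0.18 (limma adjusted p = 0.0072). Kidney Gstm2 read 6.92, 7.13, 7.48 and 7.13, against 6.47, 6.48, 6.71, 6.26 and 6.42 in vehicles, a rise of 0.70 ± 0.13 (adjusted p = 0.00458). In neither gene did the dosed and vehicle kidneys overlap. The shared Gsta2/Gsta5 probe set read 13.07, 13.20, 13.19 and 13.12, against 12.77, 12.71, 12.72, 12.77 and 13.19, where a single vehicle was as high as the dosed kidneys. Its rise of 0.31 ± 0.08 (adjusted p = 0.0355) held in 2 of 9 fits that left out 1 array, where adjusted p ran up to 0.123, and it was lost with array weights (0.0548) and with the beta-actin covariate (0.0739). Its trend of 0.05 per dose step (adjusted p = 0.0446) held in 3 of 24 such fits, with adjusted p up to 0.109. The calls of Gstm1, Gsta3 and Gstm2 at 1000 mg/kg held in all 9.

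Gstp1, which reads high in kidney, averaged 12.42 ± 0.12 after 1000 mg/kg PPH (n = 4) and 11.82 ± 0.21 in vehicles (n = 5, SD), and the groups did not overlap. The difference of 0.60 ± 0.16 (SE) had a limma adjusted p of 0.0531. Gsta4 and Gstm4 differed by 0.13 and -0.07 and did not pass. In all, 4 of 7 members rose in kidney at 1000 mg/kg PPH, where 0.728% of 11265 genes did, with a median of 0.60 over the members and -0.03 over all genes. Without overlap, 4 members were higher, against 1.8% of all genes. In the PPH trend the same 4 members rose (0.462% of genes did). With 500 mg/kg PPH none did by limma (0% of genes), and 4 members had an unadjusted p under 0.05, as had 565 of 11265 genes.

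**Figure D3:**
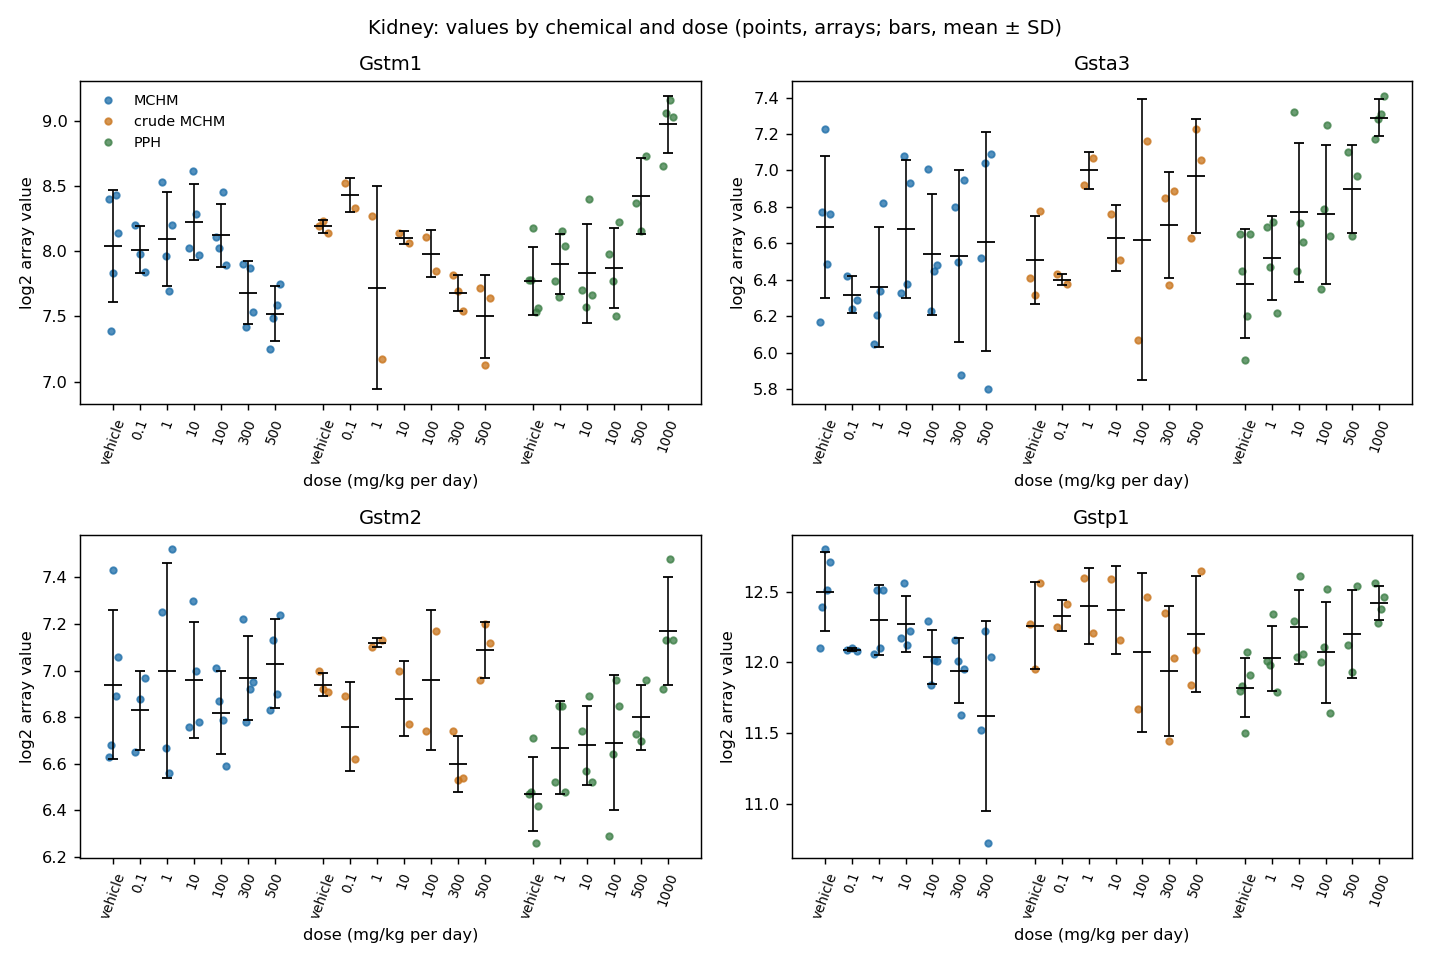
Log2 array values of Gstm1, Gsta3, Gstm2 and Gstp1 in kidney at each dose (mg/kg per day) of MCHM, crude MCHM and PPH, with 1 point per array and the mean ± SD of each group. Gstm1 stands at 8.65 to 9.16 at 1000 mg/kg PPH, above its vehicles at 7.53 to 8.18, while at 500 mg/kg MCHM and crude MCHM it stands at 7.25 to 7.75 and 7.13 to 7.72.

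With MCHM and crude MCHM no kidney difference passed the test, and at 500 mg/kg the members with the lowest unadjusted p were below vehicle. Gstm1 read 7.72, 7.13 and 7.64 after 500 mg/kg crude MCHM, against 8.19, 8.23 and 8.14 in its vehicles, without overlap (-0.69 ± 0.22, limma adjusted p = 0.297). After 500 mg/kg MCHM it read 7.25, 7.49, 7.59 and 7.75, against 8.40, 7.39, 7.83, 8.43 and 8.14, with overlap (-0.52 ± 0.19, adjusted p = 0.388). Without the vehicle high in Alb, replicate 4, that difference was -0.68 (adjusted p = 0.203). Gstm4 read 7.43, 7.12 and 7.17 after 500 mg/kg crude MCHM, against 7.58, 7.68 and 7.77 (-0.44 ± 0.13, adjusted p = 0.29), and with all chemicals in 1 fit its adjusted p was 0.02. Gsta3 in the same kidneys had a higher mean, at 6.63, 7.23 and 7.06 after 500 mg/kg crude MCHM, against 6.32 to 6.78 in vehicles (0.47 ± 0.24, adjusted p = 0.441), and 2 of the 3 were above all vehicles. The other 4 features differed by -0.06 to 0.15. Lower values without overlap were counted for Gstm1 and Gstm4 in the crude MCHM comparison, against 13.1% of all genes. No gene at all was called there by limma (0%), while 1406 genes, these 2 members among them, had an unadjusted p under 0.05. The crude MCHM kidney trend also called no member (0% of genes, with 2 members and 988 of 11217 genes at an unadjusted p under 0.05).

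Gstp1 was the member furthest from vehicle in MCHM kidneys. It read 11.52, 12.22, 10.72 and 12.04 after 500 mg/kg, against 12.10, 12.39, 12.80, 12.51 and 12.71 in vehicles. One dosed kidney overlapped the vehicles, and replicate 42 stood far below the rest. The difference was -0.88 ± 0.20 with a limma adjusted p of 0.1, and without replicate 42 it was -0.57 (adjusted p = 0.455). Fat cell markers averaged 5.27 to 8.32 in these dosed kidneys and 5.21 to 5.90 in vehicles, and with their mean as a covariate, chosen after the data were seen, the difference was -0.73 (adjusted p = 0.178). The group means over the MCHM doses were 12.09 ± 0.01 (n = 3) at 0.1 mg/kg, with all 3 arrays at or just below the lowest vehicle at 12.10 (-0.41, adjusted p = 0.945), and 12.30 ± 0.25, 12.27 ± 0.20, 12.04 ± 0.19 and 11.94 ± 0.23 at 1, 10, 100 and 300 mg/kg (SD, n = 4 each). The values did not fall evenly with dose, and the trend of -0.11 per dose step had an adjusted p of 0.11. Apart from Gstp1 and Gstm1 the features differed by -0.07 to 0.09 at 500 mg/kg. No member was called at 500 mg/kg MCHM (0.0177% of genes were, and 2 members had an unadjusted p under 0.05) or in its trend (0.124% of genes, and 2 members at an unadjusted p under 0.05). Of all 11278 genes, 1047 at 500 mg/kg and 1062 in the trend had such an unadjusted p.

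Kidney Gsta3 and Gstp1 moved between arrays of the same group together with markers of the thick ascending limb, the tubule segment that makes uromodulin. Taken as deviations from the group mean over 69 arrays, Gsta3 correlated with the mean of Umod and Slc12a1 at r = 0.876 and Gstp1 at 0.774, and with the 5 proximal tubule markers at -0.684 and -0.643. For Gstm1 the value with the thick ascending limb markers was -0.325, for Gstm2 0.460. The thick ascending limb list was not alone: with the 5 measured genes of the bile duct list, Gsta3 had r = 0.814 and Gstp1 0.724. Gstm2 had 0.616 with the 3 collecting duct markers. These are descriptions over arrays that share a normalization. At 1000 mg/kg PPH the thick ascending limb markers averaged 12.07 to 12.63, against 11.67 to 12.41 in vehicles, and at 500 mg/kg MCHM 11.60 to 12.85, against 11.88 to 13.11. With this marker mean as a covariate, chosen after the data were seen, the PPH rises were 0.73 for Gsta3 (limma adjusted p = 0.000483), 1.26 for Gstm1 (adjusted p = 0.000297) and 0.64 for Gstm2 (adjusted p = 0.00793). Gsta2/Gsta5 then had an adjusted p of 0.0553 and Gstp1 one of 0.0504. In the MCHM kidneys the same covariate brought Gstp1 past the threshold, at -0.66 (adjusted p = 0.0131) at 500 mg/kg and -0.10 per dose step (adjusted p = 0.00187).

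**Figure D4:**
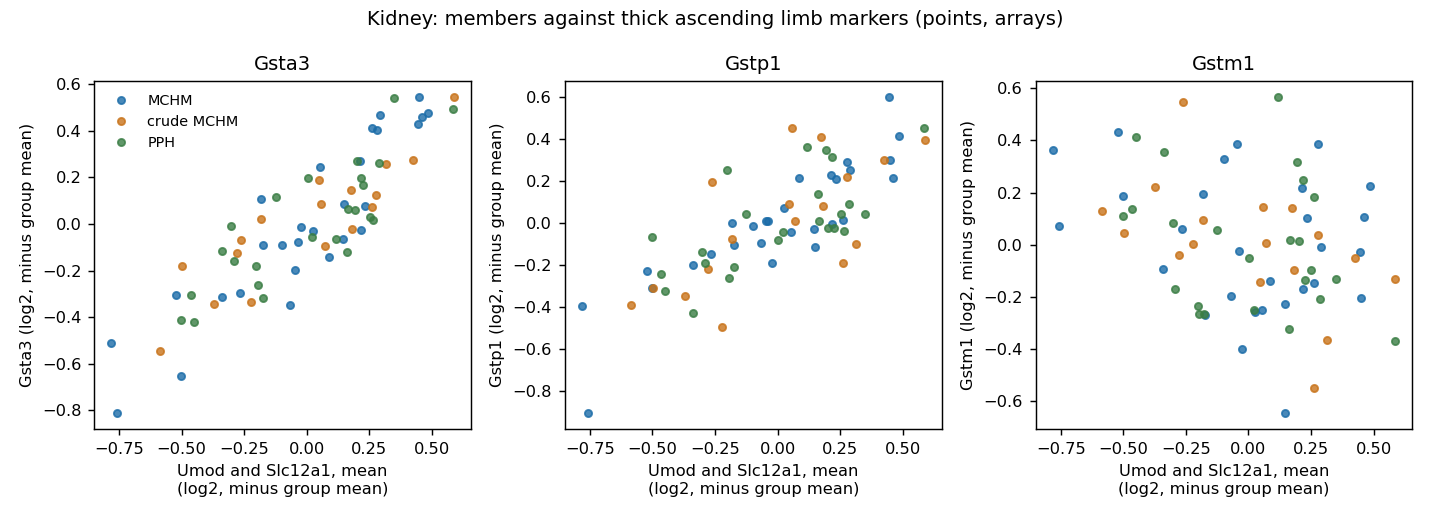
Deviation of Gsta3, Gstp1 and Gstm1 from their group mean (log2 units) in 69 kidneys against the deviation of the mean of Umod and Slc12a1, markers of the thick ascending limb, with 1 point per array coloured by chemical set. Gsta3 (r = 0.876) and Gstp1 (r = 0.774) run along the markers, and Gstm1 has r = -0.325.

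Members also varied with each other within groups. In kidney the shared Gsta2/Gsta5 probe set and Gsta4 had r = 0.806 (rho = 0.732), and Gsta3 and Gstp1 r = 0.740 (rho = 0.705). In liver the highest values were 0.537 for Gsta2/Gsta5 with Gsta4 and 0.516 for Gstm1 with Gstm4 over 81 arrays. The lowest pair was Gstm4 with Gstp1 in kidney, at -0.312.

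The tissues differed in the response of 2 members to 1000 mg/kg PPH, tested as the liver change minus the kidney change. Gsta3 responded more in liver, by 1.74 ± 0.38 log2 units (limma adjusted p = 0.0157), and Gstm1 more in kidney, at -1.02 ± 0.20 (adjusted p = 0.00586). These were 2 of 7 members, where 0.749% of all genes were called. The Gsta3 difference lost its call when 1 of the 1000 mg/kg PPH livers, the one with the highest Gsta3 value (9.68), was left out (adjusted p = 0.0506) and under the replicate block (1.70, adjusted p = 0.058). Gstp1 and Gstm2, at -0.11 and -0.24, gave adjusted p of 0.85 and 0.671. For 500 mg/kg MCHM no member was called (0.0759% of genes were, and 4 members had an unadjusted p under 0.05), with Gstp1 nearest at 0.75 (adjusted p = 0.196). For 500 mg/kg crude MCHM none was called either (0.0587% of genes, and 4 members at an unadjusted p under 0.05), with Gstm1 at 0.85 (adjusted p = 0.0576) and Gstm4 at 0.61 (adjusted p = 0.104). Over all genes, the unadjusted p was under 0.05 for 972 of 11864 with MCHM and 1522 of 11919 with crude MCHM.

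The chemicals were compared at matched doses, each change taken against its own vehicle. No member differed by limma in any of 14 comparisons in liver or 14 in kidney. In liver 0% of genes were called in all but PPH minus MCHM, 0.0086% at 10 mg/kg and 0.0344% at 500 mg/kg. In kidney it was 0% in all but 0.0956% for PPH minus crude MCHM and 0.0261% for crude MCHM minus MCHM at 500 mg/kg. Of 98 single tests per tissue, 3 in liver and 13 in kidney had an unadjusted p under 0.05. Over all genes that held for 334 to 1152 of 11625 per liver comparison and 453 to 1609 of 11502 per kidney comparison. In liver at 500 mg/kg the Gsta3 change with PPH minus that with MCHM was 0.62, with a 95% interval of -0.38 to 1.61, and minus that with crude MCHM 0.39 (-0.63 to 1.41). Gsta2/Gsta5 gave -0.10 (-0.36 to 0.16) and -0.23 (-0.49 to 0.04). In kidney Gstm1 stood furthest apart: PPH minus crude MCHM was 1.34, with an interval of 0.71 to 1.97 and an adjusted p of 0.0536, and PPH minus MCHM was 1.17 (0.60 to 1.74, adjusted p = 0.183). Kidney Gstp1 gave 1.25 for PPH minus MCHM (0.65 to 1.86, adjusted p = 0.178). Its vehicles already differed, at means of 11.82 for PPH and 12.50 for MCHM, against 12.20 and 11.62 at 500 mg/kg. With array weights Gstm1 was called in both comparisons (adjusted p = 0.00926 and 0.0267), and so was Gstp1 (adjusted p = 0.0409). Crude MCHM minus MCHM at 500 mg/kg gave 0.22 for liver Gsta3 (-0.80 to 1.24) and -0.39 for kidney Gstm4 (-0.68 to -0.10, adjusted p = 0.218). PPH at 1000 mg/kg had no matched dose of either other chemical.

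Other genes of glutathione handling and of lists of Nrf2, CAR, PXR and AhR targets were also called in livers at 1000 mg/kg PPH. Most genes of each list were not, and a link to the members was not tested. Of all 11343 genes tested in these livers, 1.23% rose, and 200 genes were called in either direction. Of 15 other glutathione transferases tested at 1000 mg/kg, 5 rose and none fell (median 0.17, against 0.03 over all genes). Among them were the theta class genes Gstt3 (1.88) and Gstt1 (0.53), the microsomal Mgst2 (0.46) and the omega class Gsto1 (0.26). The remaining 1, named after its value was seen, was the alpha class gene Gsta1 (0.21). Of 18 genes of glutathione synthesis and recycling 3 rose (median 0.11): Gsr, which regenerates glutathione (0.72), Me1, which makes NADPH (0.80), and Gpx4, a peroxidase of lipid hydroperoxides (0.21). Of 24 Nrf2 pathway genes 8 rose and 2 fell (median 0.29). The rises included Nqo1, a quinone reductase (1.33), Abcc3, an exporter of conjugates at the blood side (1.77), and Akr7a3, an aflatoxin aldehyde reductase (1.26), while Hmox1, the heme oxygenase (-0.45), and Abcc2, the exporter at the bile side (-0.40), fell, and both were named after their values were seen. Several genes, such as Nqo1, Abcc3, Gsr and Me1, stand in more than 1 of these lists. Of 17 CAR and PXR genes 6 rose (median 0.42), among them Ces2c (1.28), Cyp3a23-3a1 (0.84) and Cyp3a18 (0.48), and Nqo1 was the 1 of 7 AhR genes to rise (median 0.02).

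In liver the same lists were counted at 500 mg/kg of each chemical. Of all genes, 0.0882% were called with PPH in either direction, and 0.535% rose with crude MCHM and 0.3% with MCHM. With PPH, 1 of 15 other transferases, 1 of 24 Nrf2 pathway genes and none of 17 CAR and PXR genes were called by limma, with medians of 0.12, 0.14 and 0.05, and 3 of the CAR and PXR genes had an unadjusted p under 0.05. Gstk1, the mitochondrial glutathione transferase, was the 1 of 15 other transferases to rise with crude MCHM (0.35) and with MCHM (0.34). Of 22 Nrf2 pathway genes 1, Txnrd1, the thioredoxin reductase, rose with crude MCHM (0.34), with a median of 0.18, and none was called by limma with MCHM (median 0.10). Of 17 CAR and PXR genes 5 rose with crude MCHM, led by Cyp3a9 (1.75), and 3 with MCHM, led by Ces2c (0.81). Differences between chemicals in these lists were not tested. In kidney at 1000 mg/kg PPH, 2 of 15 other transferases rose (median 0.20), where 0.728% of all genes did. They were Gstz1 of the zeta class (0.51) and the microsomal Mgst1 (0.31), both named after their values were seen. By limma none of 22 Nrf2 pathway genes, 17 genes of glutathione synthesis and recycling, 10 CAR and PXR genes or 5 AhR genes rose there.

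Across the 17 dose groups of liver, the genes whose changes from vehicle were most like those of a member were named by Pearson's r over 11199 genes. For Gsta3 they were Uros, a heme synthesis enzyme (0.919), Trappc6a (0.918) and Fam50a (0.908). For Gsta2/Gsta5 they were Slc35e3 (0.910), Tnfaip8l1 (0.880) and Sccpdh (0.868), and for Gstp1 Il16 (0.816), Pigx (0.811) and Flcn (0.801). Gsta4 was nearest to Hipk3 (0.866), Tmem14c (0.864) and Echdc1 (0.855). Gstm2 was nearest to Tcea3 (0.913), Rras (0.899) and Echs1 (0.889), and Gstm4 to Psmf1 (0.884), Vps33b (0.878) and Rps6kb1 (0.825). Gstm1 had no value above 0.713 (Cops2, Dact2 and Las1l). Groups of a set share a vehicle, so these values are descriptions only. At 1000 mg/kg PPH Uros was 0.53 above vehicle, a fraction of the Gsta3 change.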

How the data were processed

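Total RNA from liver and kidney was read on Affymetrix rat expression arrays with 1 array per sample. The authors' deposited values are log2 expression values made with RMA (background correction, quantile normalization and summary per probe set), per the submitters' processing notes, whose version and joint or separate runs are not given in the sources used here. The deposited log2 values of 31099 probe sets were used as they stood, and array medians lay between 5.22 and 5.38. The annotation named 1 gene for 20832 probe sets, several for 436 and none for 9831. The brightest probe set of each gene and tissue was kept, and the probe set shared by Gsta2 and Gsta5 was added as 1 feature. The kidney array of 0.1 mg/kg MCHM replicate 13 was left out, because its values sat 1 line away from their probe set names: r with the remaining kidneys was 0.401 as deposited, 0.952 after the move, and at least 0.986 for any other array.

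Testing was limited to genes with 3 or more arrays of a fit over a floor, the 40th percentile of liver values (4.69) or kidney values (4.66). limma 3.58.1 in R 4.3.3 (lmFit and eBayes, two-sided; tables read by data.table, version 1.17.8) was fitted in 6 sets of 1 tissue and 1 chemical, in all groups of a tissue for differences between chemicals and vehicles, and in both tissues per chemical for tissue differences, with Benjamini-Hochberg adjustment over all genes of a comparison. A call is an adjusted p under 0.05. The dose trend is a linear contrast on dose rank with the vehicle as lowest. The scripts were tested on simulated data. Alternatives dropped the filter, averaged a gene's probe sets, repeated the quantile normalization, weighted arrays, changed which chemicals shared a fit, used the 3' to 5' difference of beta-actin controls as a covariate, or used each array left out in turn, the dropped kidney included, and the replicate number as a block. After seeing the data, the means of thick ascending limb and of fat cell markers were added as covariates in kidney. All members were tested in every comparison and named by rule, some of them in ranges or counts, with the 3 genes most like each in liver and up to 4 called genes of each list. The members and gene lists were chosen with earlier results of these data known. Figures were drawn with matplotlib 3.10.9 (Python 3.11.15, pandas 2.3.3), and promoter windows came from RefSeq's GRCr8 table.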

Additional observations from a re-analysis of the deposited data

Results flagged for a closer look

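Each of the 7 features was checked in each group of 4 or 5 arrays, 210 checks in all that reuse the same arrays. In 10 checks an array stood far from the others of its group, where chance alone gives about 1 in 20. In liver, the shared Gsta2/Gsta5 probe set read 12.91 in 500 mg/kg MCHM replicate 40, where the others read 13.15 to 13.20, and 13.07 in 500 mg/kg PPH, in 1 array, where the others read 12.69 to 12.76. Liver Gsta3 read 8.09 in 1 array at 1 mg/kg crude MCHM, against 6.84 to 7.04 in the others. Liver Gsta4 read 11.12 in 1 array at 1000 mg/kg PPH, where the others read 10.99 or just above it. Liver Gstm1 read 12.35 in 1 mg/kg MCHM replicate 15 (others 12.78 to 12.81), and liver Gstm2 10.99 in MCHM vehicle replicate 7 (others 10.70 to 10.77).

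In kidney, 1 PPH vehicle stood high in 2 members, with Gsta2/Gsta5 at 13.19 (others 12.71 to 12.77) and Gsta4 at 12.04 (others 11.56 to 11.69). Kidney Gsta2/Gsta5 read 12.49 in 300 mg/kg MCHM replicate 36 (others 12.78 to 12.82), and kidney Gstm1 read 8.40 in 1 array at 10 mg/kg PPH (others 7.57 to 7.70).

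The response to 1000 mg/kg PPH differed between the tissues for 2 members by a test of the difference itself. Liver minus kidney was 1.74 for Gsta3 and -1.02 for Gstm1. The Gsta3 difference lost its call under the replicate block.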

How the results depend on the processing

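No value changed direction while called under any alternative. With each array left out in turn, 2483 of the members' values kept their side of the threshold, 52 lost a call and 20 gained one, and under the other alternatives 898 kept it, 7 lost and 26 gained one. The number of members called in liver at 500 mg/kg crude MCHM was 1 and became 2 with the mean of all probe sets, 4 with array weights and 2 with all chemicals in 1 fit. At 500 mg/kg PPH it was 0 and became 1 under each of these 3. In kidney it was 0 and became 1 at 500 mg/kg MCHM and in the MCHM trend (array weights, thick ascending limb marker covariate), 1 at 500 mg/kg crude MCHM (array weights, all chemicals in 1 fit), 1 for PPH minus crude MCHM at 500 mg/kg (further quantile normalization, array weights), 2 for PPH minus MCHM and 1 for crude MCHM minus MCHM (array weights). For the response of liver minus kidney it became 3 from 0 with crude MCHM (array weights) and 1 from 2 with PPH under the replicate block. The causes were not tested. With the dropped kidney array as deposited, the Gstp1 trend in MCHM kidneys was -0.04 (adjusted p = 0.705).

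Leaving out 1 array gave, in liver, 2 to 3 members at 1000 mg/kg PPH, 2 to 3 in the PPH trend, 0 to 1 at 500 mg/kg PPH, 0 to 3 at 500 mg/kg crude MCHM, 2 to 4 in its trend, 0 to 1 at 500 mg/kg MCHM and 1 to 2 in its trend. In kidney it gave 3 to 5 at 1000 mg/kg PPH, 3 to 4 in its trend, 0 to 1 at 500 mg/kg MCHM, 0 to 1 in its trend and 0 to 1 for PPH minus crude MCHM. For liver minus kidney it gave 1 to 2 with PPH, 0 to 2 with crude MCHM and 0 to 1 with MCHM. The Gsta2/Gsta5 call in crude MCHM livers was lost without either of 2 of its vehicles.

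All genes called moved by over 1.5 times as follows. In liver, 59 became up to 175 (array weights) at 500 mg/kg MCHM, and 271 became 430 (array weights) in its trend. At 500 mg/kg crude MCHM 79 became up to 195 (array weights), and in its trend 227 became 141 (no filter) or 374 (array weights). At 500 mg/kg PPH 10 became between 3 and 145, and at 1000 mg/kg 200 became 349 (all chemicals). In kidney, 2 became between 0 and 61 at 500 mg/kg MCHM, 14 between 0 and 45 in its trend, 0 became 238 (array weights) or 249 (all chemicals) at 500 mg/kg crude MCHM, and 179 became 279 (thick ascending limb covariate) in the PPH trend. Between chemicals at 500 mg/kg in kidney, 11 became between 0 and 288 (PPH minus crude MCHM), 3 between 0 and 608 (crude MCHM minus MCHM) and 0 became up to 19 (PPH minus MCHM). In liver, 4 became between 0 and 23 (PPH minus MCHM) and 0 became up to 4 (PPH minus crude MCHM). For liver minus kidney, 7 became 506 with array weights and 0 under the replicate block (crude MCHM), and 9 became between 5 and 56 (MCHM).

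Liver and kidney labels share replicate numbers without saying that a number is a rat. Same-numbered arrays deviated together at r over 0.1 in 17 of 27 pairs for MCHM. For crude MCHM this held in 6 of 16 pairs and for PPH in 14 of 22. In each set their median (0.118, 0.086 and 0.113) was above that of other numbers (-0.036, -0.057 and -0.039). The main fit did not take the numbers as pairs, because the labels do not name them as rats. With the replicate block Gsta3 lost its PPH call (1.70, adjusted p = 0.058). No member has a second probe set, so reading each other probe set of a member on its own could not be run. The mean of all probe sets changed other genes' values, not the members' own, and with them the spread shared over genes and the adjusted p. Array number, and probe sets near the top of the scale, limit what small changes can show.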
